A study of Drosophila melanogaster with 19 samples.

Results

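Transcript levels of 10 cell cycle regulators were followed through the male germline of *Drosophila melanogaster*. They are *stg*, *Myt1*, *CycA*, *CycB3*, *aur*, *polo*, *fzy*, *gnu*, *CycE* and *dap*. The genes were chosen by symbol, as regulators of entry into and exit from mitosis together with the cyclin of the G1-S transition and its inhibitor, and all 10 had a row among the 12810 genes of the deposited table. Of the 10, 7 passed the test in at least 1 of 5 comparisons between dividing spermatogonia, early spermatocytes, late spermatocytes and arrested mutant spermatocytes. The share of all genes that passed in at least 1 of the 5 was not counted, so this count has no background to be set against. In the single comparisons 1.1 to 23.4% of all genes tested rose and 3.36 to 20.6% fell. *stg* and *gnu* were high in the niche and in cysts of 4 and 8 cells and near 0 in early and late spermatocytes. Both already had 0 reads in the lone library of cysts of 16 cells, and *gnu* also had 0 reads in the gonialblast libraries. By stage value *aur* was lowest in early spermatocytes, where its libraries overlapped those of the gonialblast group. *CycB3* was highest in late spermatocytes, and *CycE* in a late set whose libraries overlapped those of cysts of 8 cells.

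Each library was made from material picked with a glass needle out of torn testes, in most groups a germ cell cyst, the clone of germ cells that divides in step inside somatic cells. The group called *aly* holds arrested spermatocyte cysts from *always early* mutants (2 labelled libraries). *aly* encodes a subunit of a testis complex that switches on the spermatocyte transcription programme. The other groups carry no mutation in the labels. They are the niche at the testis tip (2), the gonialblast, the stem cell daughter that starts to differentiate (GB, 2), spermatogonial cysts of 4 cells (S4, 2), 8 cells (S8, 2) and 16 cells (S16, 1), early spermatocytes (EC, 3), and 2 sets of late spermatocytes (LC1, 3, and LC2, 2). What separates LC1 from LC2 is not stated, nor are the *aly* allele, the strain, the age of the males, or whether libraries of a group came from separate animals. The p-values below therefore measure the spread between these libraries, which may be technical.

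Entry into mitosis is set by the kinase Cdk1 bound to a mitotic cyclin. Wee1 and Myt1 kinases hold Cdk1 inactive by phosphorylation, and phosphatases of the Cdc25 family, String and Twine in flies, remove that block. Aurora A and Polo kinases then build the spindle, and the anaphase-promoting complex with its activator Fizzy destroys the cyclins. In the testis the same engine is used for the spermatogonial divisions and, after a long G2 phase in the spermatocyte, for meiosis, in which Twine takes the part that String has in mitosis.

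The table gives 1 RPKM value (reads scaled by gene length and by library size) per stage, the authors' mean over its libraries. Whole reads of the single libraries were recovered from those means, with 803129 to 5068746 reads per library. Libraries are lettered a, b and c from the largest down, and the LC2 mean holds 3 libraries although 2 are labelled. For a gene of 1 kb, 3 reads, taken as the floor of detection, were worth 0.612 to 3.22 RPKM, the most in S16. The *aly* transcript stood at 33.4 and 30.4 RPKM in the *aly* libraries, against 138, 109 and 63.0 RPKM in EC, and since the allele is not given this level does not check the label. The 5 spermatocyte markers summed to 528 RPKM in *aly*, 440.6 to 745 in EC, LC1 and LC2, 22.7 to 31.0 in S4, S8 and S16, 67.3 in GB and 5.23 in the niche. *can* had no read up to S16, while *aly* stood at 32.3 RPKM and *Rbp4* at 31.1 RPKM in GB. Markers of the muscle sheath around the testis summed to 56.8, 79.1 and 66.1 RPKM in GB, S4 and S8, against 1.03 in the niche, 1.22 in S16 and 1.13 in EC. The labels give germline stem cell as the cell type of every library, and *bam*, the switch from stem cell to differentiation, stood at 137 RPKM in GB and 8.40 RPKM in the niche. In whole cysts, fewer cells of a type and less RNA per cell cannot be told apart.

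**Figure D1:**
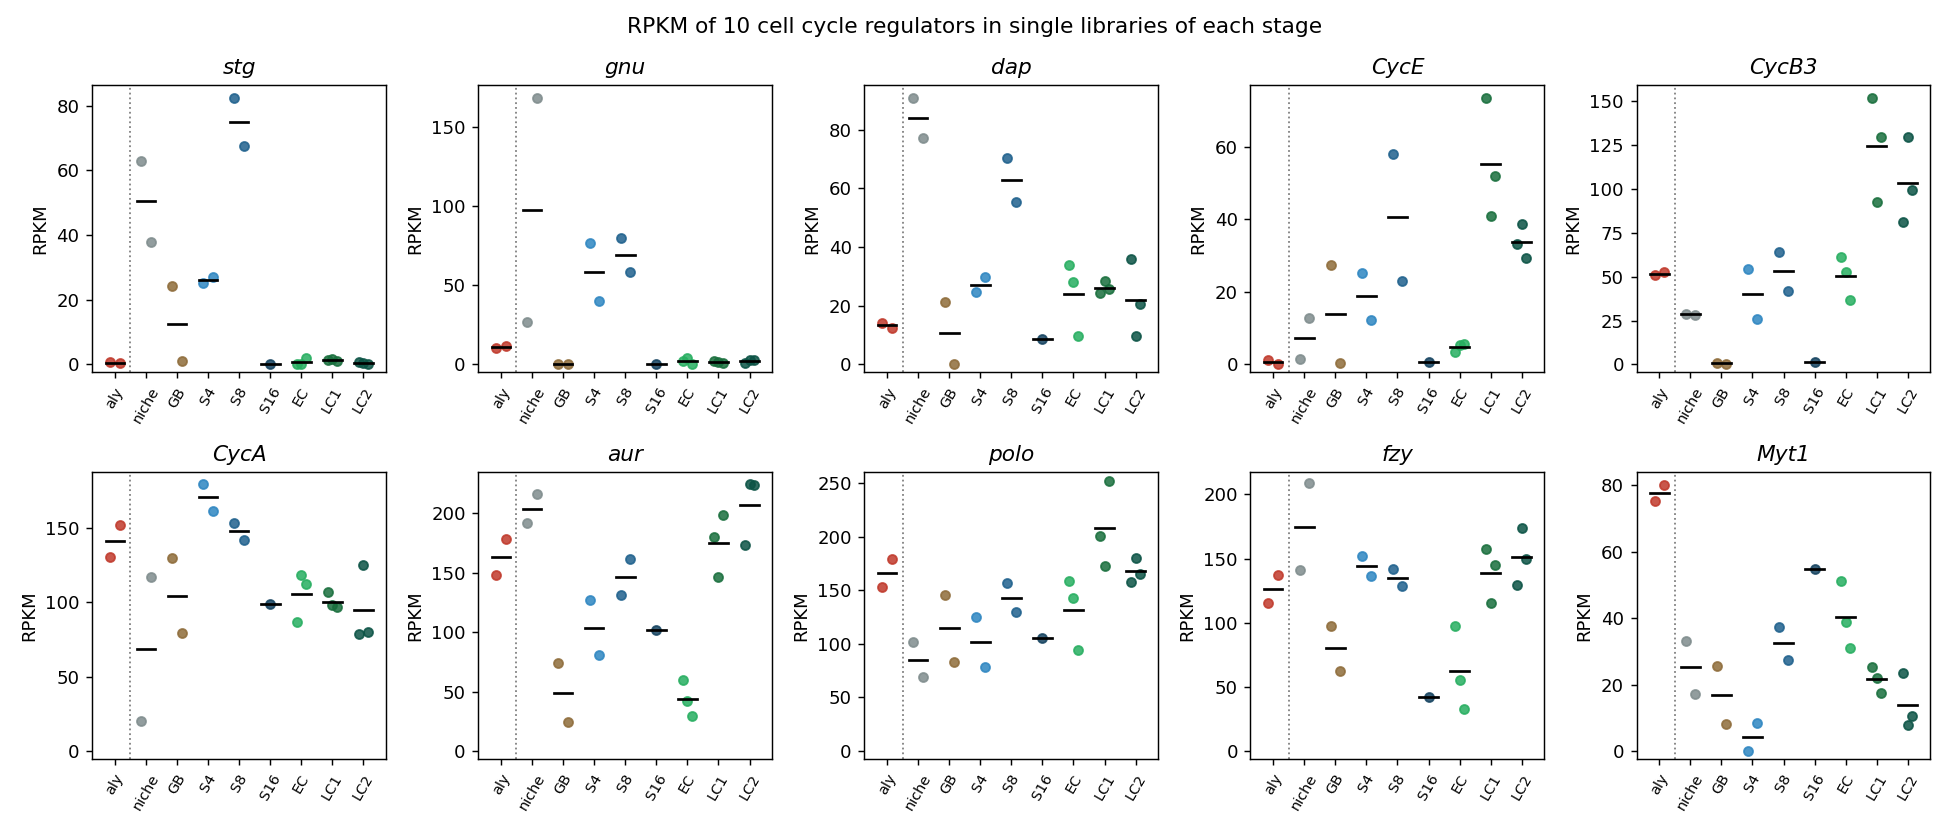
RPKM of the 10 regulators (y axes, linear, from 0) in each recovered library (points) of each group (x axes, *aly* left of the dotted line and the stages in order right of it). Black bars are the stage values. *stg* and *gnu* lie near 0 in S16, EC, LC1 and LC2, with *gnu* at 10.6 and 11.5 RPKM in *aly*. *aur* and *fzy* dip in EC, and *CycE* and *CycB3* are high in LC1 and LC2 but not in *aly*.

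*stg* encodes String, the Cdc25 phosphatase of mitosis (chromosome arm 3R, 29251826 to 29255800, minus strand, in the Ensembl BDGP6.54 annotation, to which all positions given here refer). It stood at 0.668 and 0.480 RPKM in the 2 *aly* libraries. The niche had 63.0 and 37.96 RPKM, GB 24.2 and 1.03, S4 25.03 and 27.1, S8 82.3 and 67.4, with 0 reads in S16. The spermatocyte libraries lay at 0, 0 and 2.13 RPKM in EC, 1.27, 1.81 and 1.09 in LC1, and 0.783, 0.291 and 0 in LC2. All S8, niche and S4 libraries thus lay above every S16 and spermatocyte library, and the ranges of S8, niche and S4 did not overlap. The GB libraries differed, with 158 reads in GB a and 6 in GB b. The authors' mean for S8, 74.9 RPKM, was at least 70.9-fold higher than the floor of 3 reads in the S16 library. *stg* fell in EC relative to the spermatogonia, with a fitted difference of -3.85 ± 0.63 on the log2(RPKM + 1) scale (limma, adjusted p = 1.87e-04), with means of 0.709 RPKM in EC and 40.4 RPKM in the 5 spermatogonial libraries. No spermatocyte comparison after that moved it past the test.

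*Myt1* encodes the membrane-bound kinase that works against String (3L, 5777476 to 5779591, minus strand). The *aly* cysts had its highest levels, 75.3 and 80.1 RPKM. Before the spermatocyte stage the niche had 33.3 and 17.3 RPKM, GB 25.6 and 8.13, S4 0 and 8.53, S8 37.3 and 27.5, with 54.8 in S16. Spermatocytes had 51.2, 39.0 and 31.1 RPKM in EC, 25.3, 22.0 and 17.5 in LC1, and 23.4, 8.00 and 10.5 in LC2. Both *aly* libraries lay above all other libraries, and S16 lay above all of EC. Relative to late spermatocytes *Myt1* rose in *aly*, by 2.17 ± 0.67 (limma, adjusted p = 0.0181), with means of 77.7 RPKM in *aly* and 17.8 RPKM in the 6 late libraries. That call was lost without either *aly* library (adjusted p = 0.104 and 0.11996) and with LC1 alone as the late group (1.82, adjusted p = 0.0863). The difference of EC from spermatogonia, 1.51 ± 0.60, missed the threshold (limma, adjusted p = 0.0586), and so did that of late spermatocytes from EC, -1.22 ± 0.58 (limma, adjusted p = 0.0942). Both were near the threshold. The difference of EC from spermatogonia passed without S16 (2.01, limma, adjusted p = 0.0202), S4 b, either S8 library or either GB library (adjusted p of 0.0254 to 0.0464). That of late spermatocytes from EC passed without either S4 library (limma, adjusted p = 0.0210 and 0.0220) and under quantile scaling (-1.81, adjusted p = 0.0112).

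*CycA* encodes Cyclin A, a mitotic cyclin (3L, 11826719 to 11833578, minus strand). It had 131 and 152 RPKM in *aly*, then 20.5 and 117 for the niche, 129.7 and 79.1 for GB, 179.8 and 161 for S4, 153 and 142 for S8, and 99.2 for S16. The EC libraries had 86.8, 119 and 112 RPKM, the LC1 libraries 107, 97.9 and 96.7, and the LC2 libraries 78.5, 125 and 80.3. S4 stood above all other groups, niche library a was the lowest, and the other neighbours in the order of levels mostly overlapped (6 of 8 pairs). None of the 5 tested comparisons called *CycA*; its largest fitted difference was 0.55 ± 0.44, in *aly* relative to late spermatocytes (limma, adjusted p = 0.357). Under quantile scaling it passed in that comparison, at 1.70 (limma, adjusted p = 7.53e-04), and in late spermatocytes relative to EC, at -0.76 (limma, adjusted p = 0.0389).

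*CycB3* encodes Cyclin B3, which acts in mitosis and in meiosis (3R, 24867934 to 24870816, minus strand). The *aly* libraries had 50.7 and 52.7 RPKM. Among the mitotic groups the niche had 29.0 and 28.2 RPKM, GB 0.736 and 0.414, S4 54.3 and 25.7, S8 64.1 and 41.7, with 1.27 in S16, from 3 reads. EC had 60.9, 52.8 and 36.5 RPKM, the LC1 libraries 152, 92.7 and 129, and the LC2 libraries 81.3, 129.6 and 99.2. *CycB3* was near 0 in GB and S16, the groups on either side of S4 and S8, and all 6 late libraries lay above all others. It rose in late spermatocytes relative to EC, by 1.17 ± 0.31 (limma, adjusted p = 0.00491), with means of 114 RPKM in late spermatocytes and 50.1 RPKM in EC. In *aly* it fell relative to late spermatocytes, with a fitted difference of -1.09 ± 0.36 (limma, adjusted p = 0.0237), a call lost without either *aly* library, without LC1 a and when values were scaled to total reads (adjusted p = 0.0504 to 0.151). Its rise in EC relative to spermatogonia, 1.01 ± 0.32 (limma, adjusted p = 0.0199), rested on the S16 library, without which the difference was 0.15 (limma, adjusted p = 0.772). It was also lost without EC a or EC b (limma, adjusted p = 0.0899 and 0.0700), when values were scaled to total reads (0.48, adjusted p = 0.273) and under quantile scaling (0.19, adjusted p = 0.618).

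*aur* encodes Aurora A, the kinase of centrosomes and spindle poles (3R, 11963124 to 11964826, plus strand). It stood at 148 and 178 RPKM in *aly*. The niche had 191 and 216 RPKM, GB 74.4 and 24.1, S4 127 and 80.4, S8 131 and 162, with 102 in S16. Early spermatocytes had 59.99, 41.7 and 29.5 RPKM, the LC1 libraries 179.5, 146 and 198, and the LC2 libraries 173, 225 and 224. The EC libraries lay below every other library outside GB, and the range of the late libraries overlapped that of the niche. *aur* fell in EC relative to spermatogonia, with a fitted difference of -1.46 ± 0.32 (limma, adjusted p = 0.00197; means of 43.7 RPKM in EC and 120.4 RPKM in spermatogonia). It rose in late spermatocytes relative to EC, by 2.14 ± 0.31 (limma, adjusted p = 3.24e-05; means of 191 and 43.7 RPKM). In *aly* it rose relative to EC too, by 1.93 ± 0.40 (limma, adjusted p = 0.00299). These 3 calls held under all alternatives tried, while its difference of *aly* from late spermatocytes depended on the scaling. An exon of *CG12213* on the opposite strand covers 153 bases of *aur*, and whether reads were counted by strand is not given in the sources used here.

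*polo* encodes Polo kinase, which drives mitotic entry, the spindle and cytokinesis (3L, 20309654 to 20313466, plus strand). It was high throughout, with 153 and 179 RPKM in *aly*, then 102 and 68.6 for the niche, 146 and 83.4 for GB, 125 and 78.1 for S4, 157 and 129 for S8, and 105 for S16. Spermatocyte values were 159, 142 and 94.6 RPKM in EC, 200.3, 172 and 251 in LC1, and 158, 180.4 and 165 in LC2. Every pair of neighbours in its order of levels overlapped (8 of 8), and none of the 5 tested comparisons called it. The largest of the 10 genes' shares of the limit described below was that of *polo*, and with a correction for that limit its difference of late spermatocytes from EC passed, at 0.82 (limma, adjusted p = 0.0247), against 0.52 ± 0.24 as deposited (limma, adjusted p = 0.0867). Under quantile scaling it passed in *aly* relative to EC, at 1.06 (limma, adjusted p = 0.0128), and to late spermatocytes, at 1.04 (limma, adjusted p = 0.00324).

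*fzy* encodes Fizzy, the fly Cdc20, which activates the anaphase-promoting complex (2L, 16310956 to 16313097, plus strand, with 62 bases under an opposite exon of *cact*). It stood at 115.4 and 137 RPKM in *aly*. Before the spermatocyte stage the niche had 141 and 209 RPKM, GB 97.6 and 62.4, S4 152 and 137, S8 142 and 128, with 42.5 in S16. The EC libraries had 97.9, 55.7 and 33.0 RPKM, the LC1 libraries 157, 115.4 and 145, and the LC2 libraries 129, 174 and 149.9. All 6 late libraries lay above all 3 EC libraries, and S16 lay within the EC range. *fzy* rose in late spermatocytes relative to EC, by 1.33 ± 0.28 (limma, adjusted p = 0.00106; means of 145 and 62.2 RPKM). It fell in EC relative to spermatogonia, with a fitted difference of -0.95 ± 0.29 (limma, adjusted p = 0.0185), a call lost without EC b or EC c (-0.57 without EC c; adjusted p = 0.0574 and 0.123). It rose in *aly* relative to EC, by 1.14 ± 0.37 (limma, adjusted p = 0.0384), a call lost without EC b, EC c, LC1 c or either *aly* library (adjusted p = 0.0522 to 0.230).

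*gnu* encodes the activating subunit of the PAN GU kinase, known from the egg and the early embryo, where it raises Cyclin B levels (3L, 14802380 to 14803360, minus strand). It stood at 10.6 and 11.5 RPKM in *aly*. The niche had 26.7 and 168 RPKM, S4 76.6 and 40.1, and S8 79.8 and 58.5, while both GB libraries and S16 had 0 reads. EC had 2.01, 4.20 and 0 RPKM, the LC1 libraries 2.26, 1.67 and 1.21, and the LC2 libraries 1.11, 2.89 and 2.78, each from 0 to 7 reads. Niche, S4 and S8 lay above all other libraries, and *aly*, with 48 and 36 reads, lay between them and the spermatocytes. The mean of S4, 58.3 RPKM, was at least 36.0-fold higher than the floor of 3 reads per GB library, and the mean of S8, 69.2 RPKM, at least 19.7-fold higher than that in S16. *gnu* fell in EC relative to spermatogonia, with a fitted difference of -3.45 ± 0.59 (limma, adjusted p = 2.59e-04; means of 2.07 and 51.0 RPKM). In *aly* it rose relative to late spermatocytes, by 2.05 ± 0.66 (limma, adjusted p = 0.0215; means of 11.1 and 1.99 RPKM), a call lost without either *aly* library (adjusted p = 0.112 and 0.131) and, through the minimum of 8 RPKM, under quantile scaling. Its rise in *aly* relative to EC, 2.27 ± 0.74 (limma, adjusted p = 0.0390), was lost with a pseudocount of 2, under quantile scaling, and without EC a or EC c, any LC1 library, LC2 c or either *aly* library (adjusted p up to 0.179).

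*CycE* encodes Cyclin E, which with Cdk2 starts S phase (2L, 15727581 to 15748150, minus strand, with 150 and 98 bases under 2 opposite noncoding genes). The *aly* libraries had 1.13 and 0.241 RPKM. Among the mitotic groups the niche had 1.44 and 12.9 RPKM, GB 27.5 and 0.324, S4 25.1 and 12.4, S8 58.0 and 23.0, with 0.663 in S16, from 3 reads. Early spermatocytes had 3.30, 5.39 and 5.53 RPKM, the LC1 libraries 73.3, 40.8 and 51.8, and the LC2 libraries 33.2, 38.7 and 29.2. All 6 late libraries lay above EC, *aly* and S16, and the 3 EC libraries lay above both *aly* libraries. The range of the S8 libraries, 23.0 to 58.0 RPKM, overlapped those of LC1 and LC2. *CycE* rose in late spermatocytes relative to EC, by 2.95 ± 0.76 (limma, adjusted p = 0.00426; means of 44.5 and 4.74 RPKM). In *aly* it fell relative to late spermatocytes, with a fitted difference of -4.74 ± 0.88 (limma, adjusted p = 4.79e-04; means of 0.686 and 44.5 RPKM), and this call held under all alternatives tried. Its difference of EC from spermatogonia, -1.43 ± 0.79, missed the threshold (limma, adjusted p = 0.167), but passed without S16 (-2.23, adjusted p = 0.0432), without either GB library (adjusted p = 0.0389 and 0.0373) and under quantile scaling (-2.43, adjusted p = 0.00235).

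*dap* encodes Dacapo, the inhibitor of Cyclin E with Cdk2 (2R, 9712321 to 9716256, plus strand). It stood at 14.3 and 12.5 RPKM in *aly*. The niche had 90.7 and 77.1 RPKM, GB 21.3 and 0, S4 24.7 and 29.8, S8 70.3 and 55.4, with 8.60 in S16. The EC libraries had 34.0, 28.0 and 9.77 RPKM, the LC1 libraries 24.2, 28.5 and 25.6, and the LC2 libraries 35.8, 9.72 and 20.5. The niche and S8 libraries lay above all others and apart from each other, while the spermatocyte groups overlapped. None of the 5 tested comparisons called *dap*.

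From the niche to S16 the groups hold 1 or 2 libraries each, so values are described without a test, as members at least 4-fold apart in stage value after adding 1 RPKM. In GB relative to the niche, 0 of the 10 regulators were that much higher (9.4% of 11814 genes were) and 4 were lower (9.36% of genes were), namely *CycB3*, *aur*, *gnu* and *dap*. The median difference of the 10 genes was -1.52 on the log2 scale, against -0.22 over the 8002 genes with a mean of at least 1 RPKM over both stages (genes at 0 in both stages count in the percentages). The count of 4 was 2 without GB b, the library with the lower levels of *stg*, *CycE* and *dap*, and 6 without GB a. In S4 relative to GB, 2 of 10 were at least 4-fold higher, *CycB3* and *gnu* (7.47% of genes), and 0 lower (6.53% of genes). This count was 6 without GB a. Niche and GB also differed in hub markers, which summed to 1.84 RPKM in GB and 65.9 RPKM in the niche, and in muscle sheath markers, all 5 of which had reads in GB while 3 of 5 were at 0 in the niche. Cyst cell markers summed to 8.98 RPKM in GB and 56.5 RPKM in the niche. The part of these markers and of the spermatocyte markers in the differences was not tested.

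*Myt1* alone stood 4-fold apart between S8 and S4. In S8 relative to S4, 1 of 10 was at least 4-fold higher, *Myt1* (3.68% of genes), and 0 were lower (3.77% of genes), and the count was 0 without S4 a, which had no *Myt1* read. *stg* stood 2.87 times, *dap* 2.31 times and *CycE* 2.16 times as high in S8 as in S4 by stage value, and *fzy* 0.938 times. In S16 relative to S8, 0 of 10 were at least 4-fold higher (2.51% of genes) and 5 were lower (8.89% of genes), *stg*, *CycB3*, *CycE*, *gnu* and *dap*. The median difference of the 10 genes was -2.19, against -0.01 over 7678 genes chosen in the same way. The level in S16 was 2.40% of that in S8 for *CycB3* (exact Poisson 95% interval 0.494 to 7.005%) and 1.64% for *CycE* (0.337 to 4.78%); these intervals cover counting error in S16 only. *CycA*, *aur* and *polo* stood in S16 at 0.672, 0.695 and 0.734 times their S8 values, and *Myt1* at 1.69 times. The S16 group is a lone library with the fewest reads of all, and muscle sheath markers summed to 1.22 RPKM in it, against 66.1 RPKM in S8. Their part in the differences was not tested.

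Early spermatocytes were compared with the spermatogonia (2 S4, 2 S8 and 1 S16 library) in a limma fit of log2(RPKM + 1) over all 20 libraries and 12363 genes. A gene passed at an adjusted p under 0.05 with at least 8 RPKM on the higher side, and all 10 regulators were among the genes tested. In EC, 1 of 10 rose, *CycB3* (22.2% of all genes tested rose), and 4 fell (7.02% of genes), *stg*, *gnu*, *aur* and *fzy*. By stage value *stg*, *gnu* and *fzy* were no higher in S16 (0, 0 and 42.5 RPKM) than in EC (0.709, 2.07 and 62.2 RPKM). For these genes only S4 and S8 of the spermatogonial groups lay above EC. *aur* stood at 102 RPKM in S16 and 43.7 RPKM in EC, and *CycB3* at 1.27 and 50.1 RPKM. The median difference of the 10 genes was -0.72, against 0.48 over all genes tested. The count of 5 ranged from 3, without EC b, to 7 when single libraries were left out. *CycA*, *polo* and *dap* differed by -0.46 ± 0.39, 0.15 ± 0.25 and -0.50 ± 0.73. Spermatocyte markers summed to 745 RPKM in EC and to 22.7 to 31.0 RPKM in S4, S8 and S16. Muscle sheath markers summed to 1.13 RPKM in EC, against 79.1 RPKM for S4, 66.1 for S8 and 1.22 for S16. Haemocyte and fat body markers summed to 26.7 RPKM in EC, and to at most 0.739 RPKM in S4, S8 and S16. The part of these markers was not tested.

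**Figure D2:**
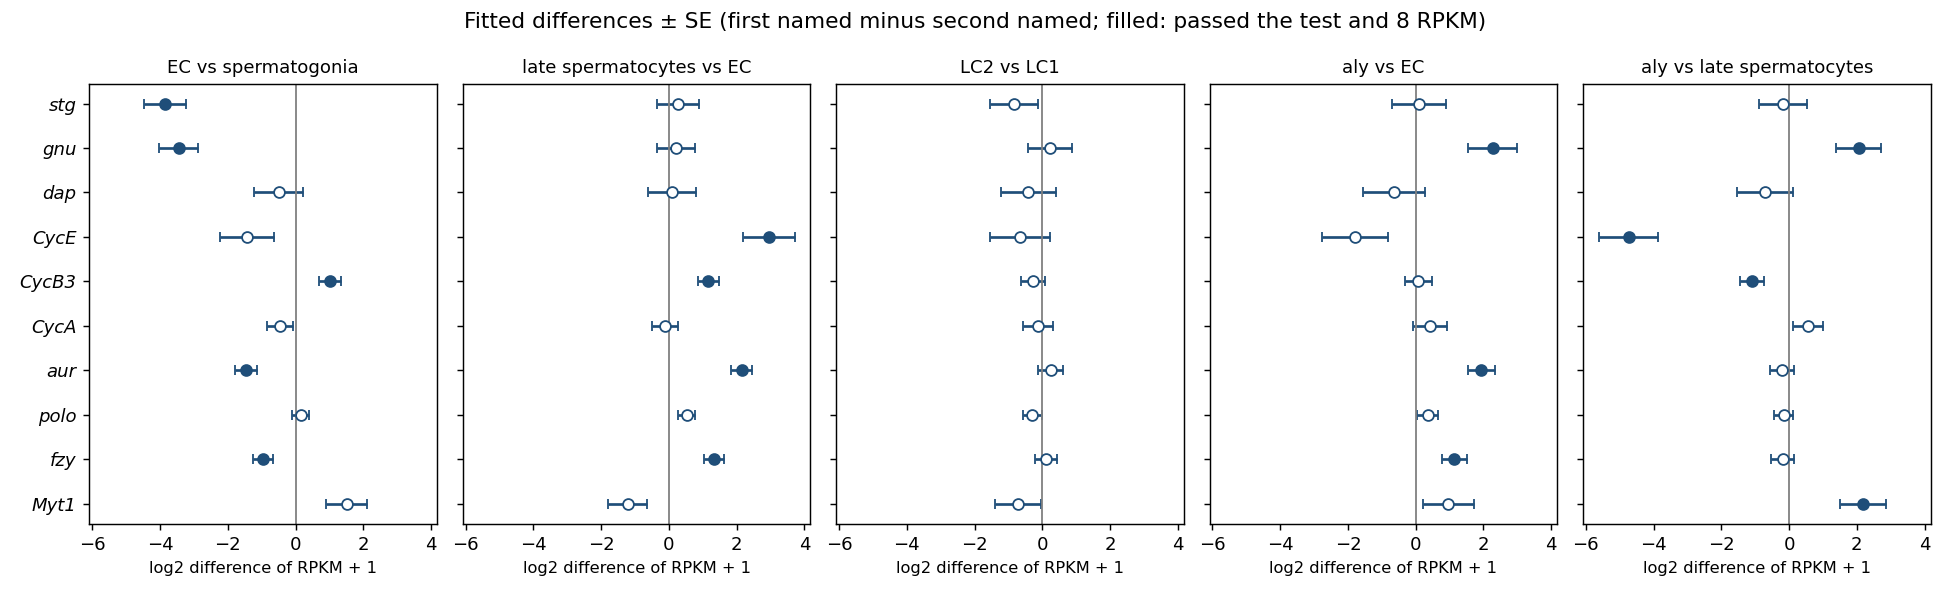
Fitted log2 differences of RPKM + 1 (x axes) with standard errors (bars) for the 10 regulators (rows) in the 5 tested comparisons (panels), first-named group minus second. Filled points passed the limma test with at least 8 RPKM on the higher side: 5 in EC against spermatogonia, 4 in late spermatocytes against EC, 0 in LC2 against LC1, 3 in *aly* against EC and 4 in *aly* against late spermatocytes.

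In late spermatocytes (3 LC1 and 3 LC2 libraries) relative to EC, 4 of 10 regulators rose, *CycE*, *aur*, *fzy* and *CycB3* (23.4% of all genes tested rose), and 0 fell (20.6% of genes fell). The median of the 10 genes was 0.40, against 0.11 over all genes tested. The count was 4 or 5 under every omission of a library, and 4 with LC1 alone. *aur* and *fzy* are the genes that also fell in EC relative to spermatogonia, and the 2 comparisons share the EC libraries. *stg*, *gnu*, *dap* and *CycA* differed by 0.27 ± 0.61, 0.21 ± 0.57, 0.08 ± 0.71 and -0.12 ± 0.38. Markers of other cells differed between the late sets and EC. Hub markers summed to 53.8 and 32.3 RPKM in LC1 and LC2 and to 5.57 RPKM in EC, and cyst cell markers to 85.8, 41.0 and 30.4 RPKM. Among the cyst cell markers *zfh1* and *eya* were higher in both late sets than in EC, and *ptc* in LC1 only. *tj* was lower, at 1.21, 0.458 and 7.88 RPKM in LC1, LC2 and EC. Haemocyte and fat body markers summed to 24.4, 121 and 26.7 RPKM in LC1, LC2 and EC. The LC2 sum was mostly *Lsp2* and *Fbp1*, at 90.7 and 28.2 RPKM, with *Hml* at 1.46 RPKM. For cyst cell markers the LC2 libraries overlapped those of EC, and for haemocyte and fat body markers the LC1 libraries did. The part of these markers was not tested.

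Between the 2 late sets no regulator passed the test. In LC2 relative to LC1, 0 of 10 rose (1.1% of all genes tested) and 0 fell (3.36%), and 0 had an unadjusted p under 0.05 in limma, the only tool run. Fitted differences ran from -0.84 ± 0.71 for *stg*, at or near 0 in both sets, to 0.24 ± 0.36 for *aur*. Under quantile scaling *polo* passed, at -0.87 (limma, adjusted p = 0.0459).

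In the arrested *aly* cysts *aur* and *fzy* lay above EC, *CycE* and *CycB3* below the late sets, and *gnu* above both. Relative to EC, 3 of 10 rose in *aly*, *aur*, *fzy* and *gnu* (8.5% of all genes tested rose), and 0 fell (7.1% of genes). Relative to late spermatocytes, 2 of 10 rose, *gnu* and *Myt1* (14.4% of all genes tested), and 2 fell, *CycE* and *CycB3* (18% of genes). The medians of the 10 genes were 0.39 and -0.18, against 0.17 and 0.07 over all genes tested; both comparisons share the *aly* libraries. *aur*, *fzy* and *polo* differed from late spermatocytes by -0.21 ± 0.36, -0.19 ± 0.33 and -0.16 ± 0.28, each smaller than its standard error. Under quantile scaling *aur* and *polo* passed as higher in *aly*, at 1.05 and 1.04 (limma, adjusted p = 0.00692 and 0.00324), and with the correction for the limit described below both lay above 0 without passing, at 0.09 and 0.15. *CycB3* differed from EC by 0.08 ± 0.40. Without either *aly* library 1 regulator passed in each comparison, *aur* relative to EC and *CycE* relative to late spermatocytes, and the range over omissions was 1 to 3 relative to EC and 1 to 4 relative to late spermatocytes. Hub markers summed to 17.2 RPKM in *aly*, 5.57 in EC and 53.8 and 32.3 in the late sets. Muscle sheath markers summed to 13.8 RPKM in *aly*, 1.13 in EC, 14.4 in LC1 and 2.33 in LC2, and germline markers to 121, 331, 138 and 66.7 RPKM. Haemocyte and fat body markers summed to 38.1 RPKM in *aly*, 26.7 in EC, 24.4 in LC1 and 121 in LC2. Within that list *Hml*, *Yp1* and *He* were higher in *aly* than in EC (26.9 against 1.15 RPKM for *Hml*). *Lsp2* and *Fbp1* were lower in *aly*, at 2.51 and 0.354 RPKM against 16.1 and 9.36 RPKM in EC. The part of these markers was not tested.

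The regulators work in pairs, and within a library the share of a pair's summed RPKM held by 1 member does not depend on that library's scale. The shares given per stage come from the stage means, and so weigh each library by its level. *stg* held 1.21% of the sum of *stg* and *twe*, the meiotic Cdc25, in *aly*. The niche had 86.3%, GB 92.7%, S4 47.9%, S8 48.8%, S16 0%, EC 1.41%, LC1 0.826% and LC2 0.178%. The GB value joins 100% in GB a with 34.2% in GB b, and that of EC 0% in 2 libraries with 8.86% in EC c. *twe* transcripts were thus as abundant per length as those of *stg* already in S4 and S8, at 29.1 and 27.6 RPKM in S4 and 91.4 and 65.8 in S8. *twe* rose in late spermatocytes relative to EC, by 2.06 ± 0.47 (limma, adjusted p = 0.00185), and fell in *aly* relative to late spermatocytes, with a fitted difference of -1.93 ± 0.55 (limma, adjusted p = 0.0111), the last a call lost without either *aly* library (adjusted p = 0.0775 and 0.0908).

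*Myt1* held 36.1% of the sum of *Myt1* and *wee*, the nuclear inhibitor of Cdk1, in *aly*. The niche had 71.4%, GB 15.2%, S4 14.2%, S8 40.1%, S16 60.5%, EC 37.3%, LC1 11.5% and LC2 9.07%. The S4 value joins 0% in S4 a with 34.4% in S4 b. The *aly* libraries had 37.4 and 34.98%, next to the EC range of 35.2 to 41.1%, and all 6 late libraries lay below the 3 EC libraries. The difference of late spermatocytes from EC in *wee*, 1.16 ± 0.47, lay just past the threshold (limma, adjusted p = 0.0481) and missed it when scaled to total reads, under quantile scaling, with a pseudocount of 0.5 and without most single EC, LC1, LC2, S8 or *aly* libraries (adjusted p up to 0.151).

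*CycB3* held 24.3% of the summed RPKM of *CycA*, *CycB* and *CycB3* in *aly*. The niche had 21.8%, GB 0.402%, S4 14.8%, S8 19.1%, S16 1.20%, EC 30.5%, LC1 32.8% and LC2 26.97%. *CycB*, the third mitotic cyclin, rose in late spermatocytes relative to EC, by 4.19 ± 0.71 (limma, adjusted p = 1.42e-04; means of 170.0 and 8.43 RPKM). In *aly* it fell relative to late spermatocytes, with a fitted difference of -3.07 ± 0.82 (limma, adjusted p = 0.00745; means of 19.8 and 170.0 RPKM). That call was lost without *aly* b (-2.64; limma, adjusted p = 0.106). No test between the mitotic cyclins was run.

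*CycE* held 4.88% of the sum of *CycE* and its inhibitor *dap* in *aly*. The niche had 7.87%, GB 56.6%, S4 40.8%, S8 39.2%, S16 7.15%, EC 16.5%, LC1 67.9% and LC2 60.5%. The *aly* libraries, at 7.35 and 1.89%, lay below all 3 EC libraries and all 6 late libraries. The niche value joins 1.56 and 14.3%, that of GB 56.4 and 100% and that of EC 8.82 to 36.1%. *cdc2c*, the table's name for Cdk2, the kinase partner of Cyclin E, fell in EC relative to spermatogonia, with a fitted difference of -2.43 ± 0.45 (limma, adjusted p = 4.86e-04), and its difference of late spermatocytes from EC was -0.61 ± 0.43 (limma, adjusted p = 0.259), which passed under quantile scaling (-1.16, adjusted p = 0.0144) and without either GB library (adjusted p = 0.0495 and 0.0459).

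**Figure D3:**
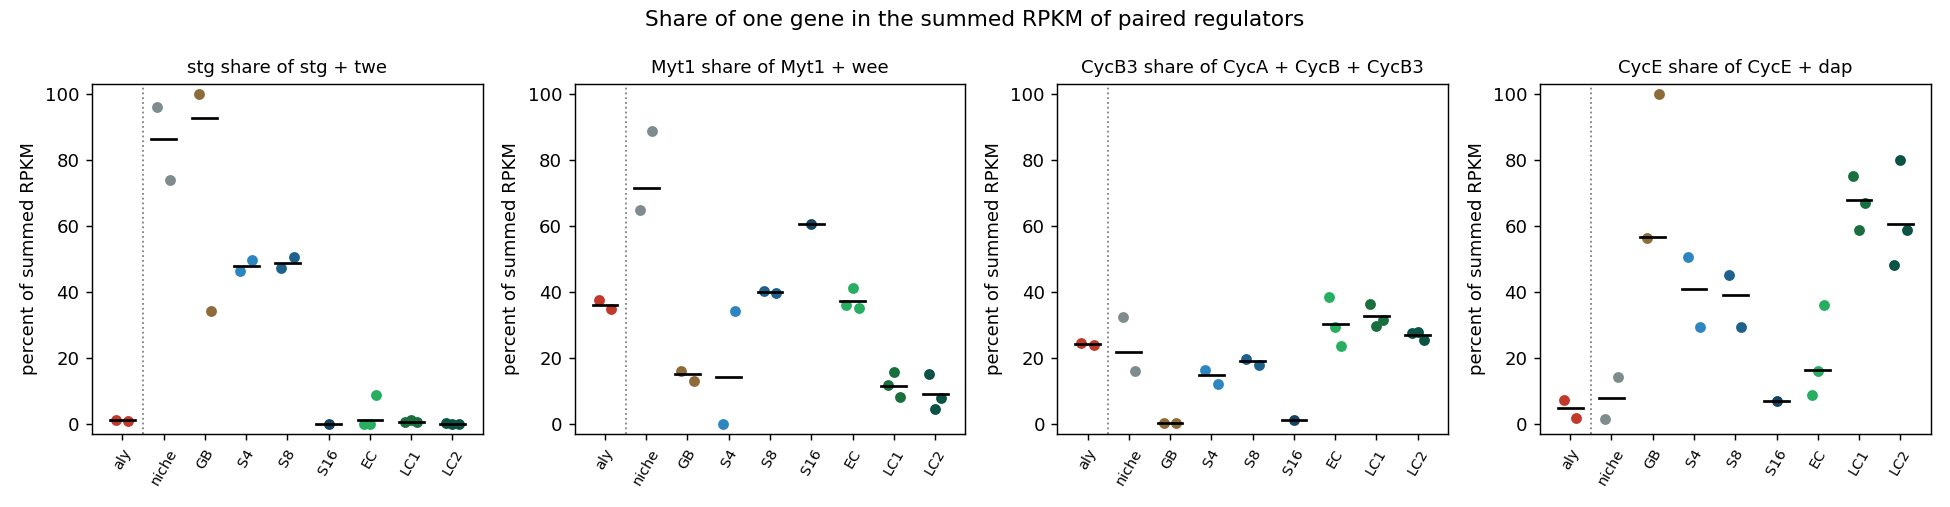
Percent of the summed RPKM held by the first-named gene of each pair or set (y axes, 0 to 100), by library (points) and by stage value (bars), with *aly* left of the dotted line and the stages in order right of it. The share of *stg* is near 48% in S4 and S8 and at most 8.86% in any spermatocyte library, and the share of *CycE* is 4.88% in *aly* against 67.9 and 60.5% in LC1 and LC2.

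At no stage did *gnu* and the other 2 subunits of the PAN GU kinase all reach 8 RPKM. *png*, the catalytic subunit, stood at 85.2 RPKM in GB a, where *gnu* had no read, and at 0 reads in GB b and S16. In S4 and S8, where *gnu* was high, *png* had 1 read in all. EC libraries had 7 to 18 reads of *png*, which rose in EC relative to spermatogonia, by 3.05 ± 0.98 (limma, adjusted p = 0.0220). That call was lost under quantile scaling (limma, adjusted p = 0.130) and without EC a or EC c (limma, adjusted p = 0.0538 and 0.0946). It was also lost when values were scaled to total reads, through the minimum of 8 RPKM. *plu*, the third subunit, had at most 4 reads in any library up to EC, and rose in late spermatocytes relative to EC, by 3.31 ± 0.65 (limma, adjusted p = 5.07e-04). It fell in *aly* relative to late spermatocytes, with a fitted difference of -2.16 ± 0.75 (limma, adjusted p = 0.0314), a call lost without *aly* b (-1.30, adjusted p = 0.374), with LC1 alone as the late group (-1.88, adjusted p = 0.110) and with a pseudocount of 0.5 (adjusted p = 0.0546).

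With these partners, 59 other genes of the same machinery were listed by role, of which 58 passed the filter on low values. In EC relative to spermatogonia 12 of the 58 rose and 10 fell, 20.7 and 17.2% against 22.2 and 7.02% of all genes tested. Of 10 cyclin and Cdk partners 1 rose and 3 fell, *CycB*, *cdc2c* and *Cks30A*, where the call of *CycB* was lost without S4 a, either S8 library or any EC library (limma, adjusted p of 0.0658 to 0.126). Of 7 Aurora and Polo partners 2 fell, *ial*, which encodes Aurora B, and *borr*. Of 19 genes of the anaphase-promoting complex and the spindle checkpoint 5 rose, among them *Cdc27*, a call lost when values were scaled to total reads (limma, adjusted p = 0.0508), and 2 fell, and of 11 G1-S genes 3 rose and 2 fell. In late spermatocytes relative to EC 14 rose and 15 fell, 24.1 and 25.9% against 23.4 and 20.6% of all genes. In LC2 relative to LC1 1 rose and 1 fell, 1.72% each against 1.1 and 3.36% of all genes. In *aly* relative to EC 4 rose and 4 fell, 6.90% each against 8.5 and 7.1%, and relative to late spermatocytes 7 and 7, 12.1% each against 14.4 and 18%. The median differences of the 58 genes were 0.20, -0.17, -0.28, 0.16 and 0.22 in these 5 comparisons, against 0.48, 0.11, -0.07, 0.17 and 0.07 over all genes tested. *aur* and its relative *ial* fell together in EC, but the difference of late spermatocytes from EC in *ial* was 0.39 ± 0.37 (limma, adjusted p = 0.407).

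**Figure D4:**
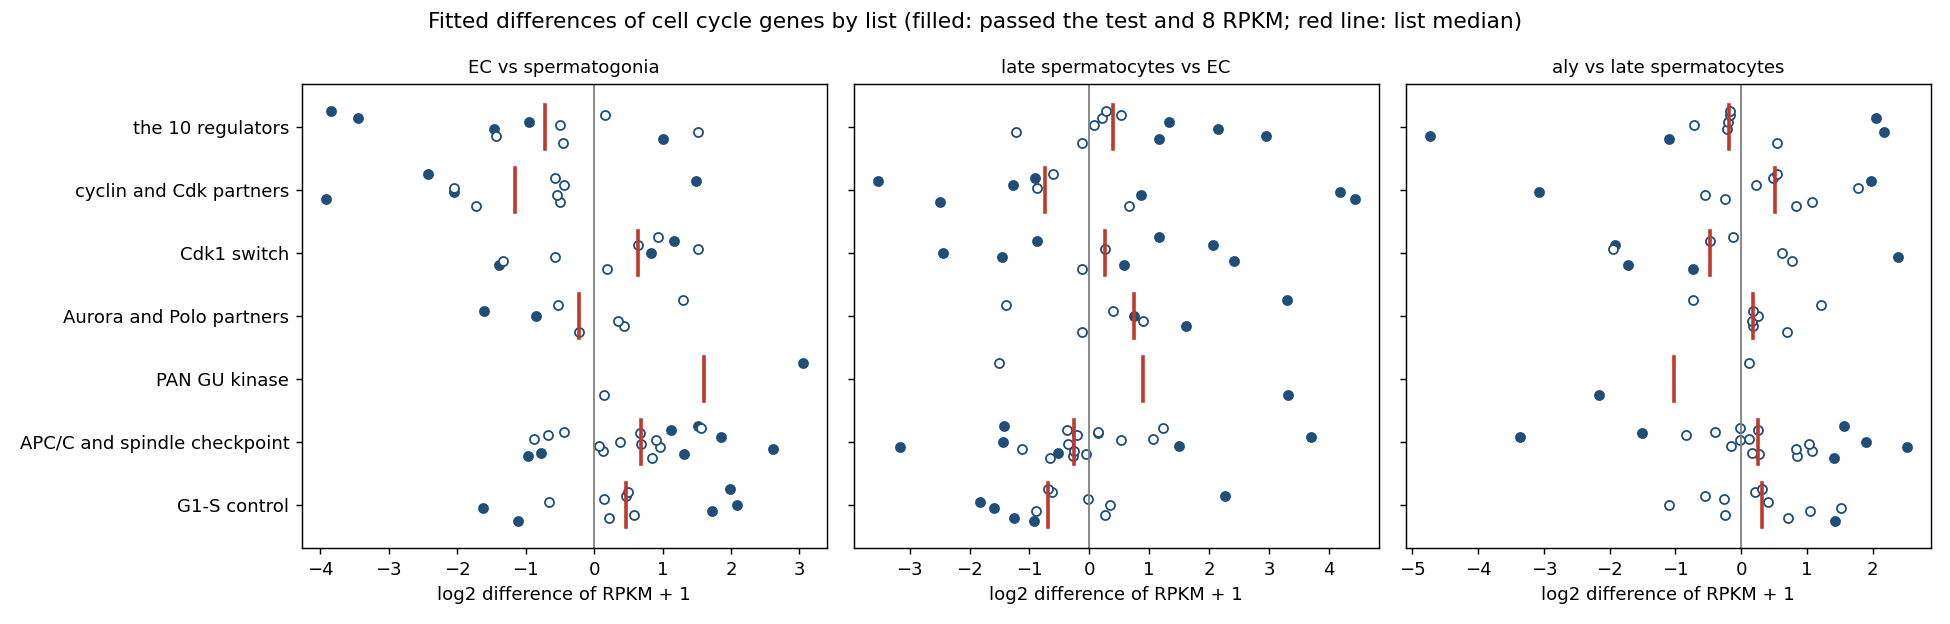
Fitted log2 differences of RPKM + 1 (x axes) for the 10 regulators and the 6 lists of other cell cycle genes (rows) in 3 comparisons (panels); filled points passed the limma test with at least 8 RPKM on the higher side and red lines are list medians. In EC against spermatogonia the 10 regulators have a median of -0.72 and the genes of the anaphase-promoting complex and checkpoint a median of 0.68. The median over all genes tested is 0.48 in that comparison.

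In the files no library holds more than 1 read per base of a gene, so a level cannot exceed 204 to 1075 RPKM, depending on depth. The highest library reached 75.0% of that limit for *polo*, 72.8% for *aur*, 64.0% for *CycA*, 56.6% for *fzy* and 50.9% for *CycB3*, and at most 37.0% for the other 5 genes. The limit is lowest in *aly* a, at 204 RPKM, then in S8 a, at 270 RPKM, and then in *aly* b, at 293 RPKM.

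Over the 9 stage values, the members most alike were *gnu* and *dap* (Pearson r of log2 values 0.82), *stg* and *gnu* (0.75) and *stg* and *dap* (0.71). Among 10579 genes with a stage value of at least 8 RPKM, those most like *stg* were *CG10688*, *CG12014* and *Vha68-2* (0.96 each). *CycB3* was most like *CG14870* and *Pde11* (0.98 and 0.97), and *CycE* most like *ken* and *Cap-G* (0.96 and 0.93), of which *Cap-G* encodes a condensin subunit. *aur* was most like *CG3709* (0.95), *polo* like *CG5645* (0.97), *fzy* like *CG14667* (0.97) and *gnu* like *CG15308* (0.96). *dap* was most like *Arc2* (0.96), *CycA* like *YL-1* (0.94) and *Myt1* like *CG1129* (0.91). With 9 points that share their libraries and depth, these values are descriptions.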

How the data were processed

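The authors deposited 1 table of RPKM, per the file headers, with 1 mean value per stage; its title line writes cRPKM without explaining the c. Bowtie 0.12.7 and edgeR are named, with no role, in the submitters' processing notes. Neither the genome build nor the annotation, strand or duplicate handling is stated in the sources used here. Per the labels' protocols, mRNA of permeabilised cysts was reverse transcribed from poly-dT, tailed and amplified; without molecular identifiers, floors and intervals cover counting error only.

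A stage value is a plain mean of reads per length and effective library size, so whole reads of single libraries were recovered from it. This gave 20 libraries against 19 labelled. Recovery was complete for 12684 of 12810 genes, all 10 regulators among them. In simulated means 394 of 400 genes came back with the right proportions. Within a stage, libraries differed by more than counting noise (chi-square per gene of 6.40 to 59.2), so each was counted once. Repeat amplifications of 1 sample could differ as much, so this does not show that the unlabelled LC2 library is a separate sample.

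The fit used limma 3.58.1 in R 4.3.3 on log2(RPKM + 1) with a pooled, trended variance (11 residual and 3.89 prior degrees of freedom). It took in 12363 genes with at least 1 RPKM in 2 libraries. Tests were two-sided with Benjamini-Hochberg adjustment over all genes, at 0.05 and at least 8 RPKM on the higher side. They had been planned on the condition that single libraries could be recovered, and the lone S16 library is assumed to vary like the others. Steps from the niche to S16 were described without a test, because earlier simulations of these small groups gave too many false calls. Their counts at 4-fold used 11814 genes with at least 1 RPKM in 2 stage columns. Spermatogonia and late spermatocytes weight each recovered library equally. The comparison of EC with spermatogonia uses the same S4, S8 and S16 libraries that were judged too few for a test of single steps. Differences between those groups are not part of its error, and the lone S16 library adds nothing to the variance estimate. The fit was tested on simulated data, and the false call rates found are not given here.

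The regulators and all lists were chosen with earlier results of these data known. All 10 were named, and other cell cycle genes where they are a partner or have the largest difference of their list. Alternatives were other pseudocounts, filters, scalings and folds, a correction for the limit of 1 read per base, each library left out and, chosen after seeing the data, LC1 alone as the late group. Positions are those of Ensembl BDGP6.54, which holds 12208 of the table's identifiers. A common haemocyte marker, *NimC1*, was not used here.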

Additional observations from a re-analysis of the deposited data

How the results depend on the processing

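Of 1420 alternative values of the 10 regulators in the tested comparisons, 1344 kept their direction and their side of the threshold, 32 lost the call, 18 gained it, 24 without a call moved across 0, and 2 reversed while gaining a call. Over all named genes 3055 of 3239 values kept both, and 94 lost the call. The 2 reversed are *aur* and *polo* in *aly* relative to late spermatocytes, at 1.05 and 1.04 under quantile scaling. In LC2 relative to LC1 quantile scaling called 1 regulator, *polo*, in place of 0. At 2-fold in place of 4-fold, 5 regulators lay apart in S4 relative to GB and 4 in S8 relative to S4. The share of all genes at 2-fold was not counted, so these counts have no background to be set against. *png* lay at -2.43 in GB relative to the niche and at 0 in S4 relative to GB without GB a, and over all omissions between -2.43 and 4.00 and between -6.43 and 0.

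When single libraries were left out, the number of regulators called ranged from 3 to 7 in EC relative to spermatogonia, 4 to 5 in late spermatocytes relative to EC, 0 to 0 in LC2 relative to LC1, 1 to 3 in *aly* relative to EC and 1 to 4 in *aly* relative to late spermatocytes. The number at least 4-fold apart ranged from 2 to 6 in GB relative to the niche, 2 to 6 in S4 relative to GB, 0 to 1 in S8 relative to S4 and 5 to 5 in S16 relative to S8. The low counts in *aly* relative to EC came without EC c, LC1 c or either *aly* library. The variance is pooled over all groups. Leaving out a library outside a comparison, such as LC1 c here, therefore changes standard errors and adjusted p but not the fitted difference. The cause of the other changes was not tested.

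Other scalings moved the median of all genes. Scaling to total reads moved it by -0.28 in EC relative to spermatogonia, 0.15 in *aly* relative to late spermatocytes, 0.31 in GB relative to the niche and -0.19 in S16 relative to S8. Quantile scaling moved it by -0.55, -0.49, -0.28 and 0.33 in EC relative to spermatogonia, late spermatocytes relative to EC, *aly* relative to EC and *aly* relative to late spermatocytes, and by 0.23 and -0.10 in the first 2 stage steps. Depth limits S16 most, where the floor of 3 reads is highest and *stg*, *gnu*, *CycE* and *CycB3* have 0 to 3 reads. No paired analysis was possible because recovered libraries carry no replicate number.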

Other observations

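Among the other cell cycle genes, some of those with the largest difference of their list passed the test between spermatocyte groups. Others did not, such as *mei-38* in *aly* relative to late spermatocytes, at 1.21 ± 1.11 (limma, adjusted p = 0.417). *Cks30A*, a small subunit of Cdk1 complexes, fell in EC relative to spermatogonia and rose in late spermatocytes and in *aly* relative to EC. The fitted difference of EC from spermatogonia was -3.92 ± 0.43 (limma, adjusted p = 4.60e-06; means of 4.78 RPKM in EC and 121 RPKM in spermatogonia). That of late spermatocytes from EC was 4.43 ± 0.42 (limma, adjusted p = 3.75e-07; a late mean of 114 RPKM), and that of *aly* from EC 4.19 ± 0.54 (limma, adjusted p = 6.61e-05; an *aly* mean of 89.0 RPKM). *fzr2*, a relative of the activators of the anaphase-promoting complex, rose in late spermatocytes relative to EC, by 3.70 ± 0.38 (limma, adjusted p = 1.04e-06; means of 210.2 and 15.5 RPKM). In *aly* it fell relative to late spermatocytes, with a fitted difference of -3.36 ± 0.44 (limma, adjusted p = 1.88e-05; means of 19.1 and 210.2 RPKM).

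*mtrm*, which encodes an inhibitor of Polo known from the oocyte, rose in late spermatocytes relative to EC, by 3.30 ± 0.41 (limma, adjusted p = 7.25e-06; means of 24.7 and 1.94 RPKM). *gwl*, the Greatwall kinase that restrains the phosphatase opposing Cdk1, rose in *aly* relative to EC, by 3.20 ± 0.65 (limma, adjusted p = 0.00247; means of 111 and 12.1 RPKM). *mts*, the catalytic subunit of that phosphatase, fell in late spermatocytes relative to EC, with a fitted difference of -2.44 ± 0.24 (limma, adjusted p = 4.77e-07; means of 72.9 and 377.5 RPKM). *lok*, a checkpoint kinase, rose in *aly* relative to late spermatocytes, by 2.38 ± 0.42 (limma, adjusted p = 3.24e-04; means of 63.8 and 12.3 RPKM). These genes were named for the size of their differences, and the calls given here for *Cks30A*, *fzr2*, *mtrm*, *gwl*, *mts* and *lok* held under every alternative run.

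In the 6 late libraries none of the 10 regulators had a library standing apart from the other 5 by Dixon's criterion.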
